A study of Mus musculus with 3 samples.

Results

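The control line of the Linc-RAM study was described on its own, from the only library of this line among the 3 libraries of the series. C2C12 is a mouse myoblast line that leaves the cell cycle and fuses into myotubes when serum is lowered. The line carried a lentivirus with an empty vector, had been selected with blasticidin, and gave polyadenylated RNA at 12 h in low-serum differentiation medium. Whether the selected cells were a pool or a clone is not given in the sources used here. The library was chosen by its label and was not set against the other 2. With 1 library there is no replicate, so no difference between genes was tested and every interval covers counting error only.

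Myogenic differentiation is driven by 4 related basic helix-loop-helix factors, MyoD, Myf5, myogenin and Mrf4 (gene Myf6), which act with MEF2 proteins on muscle promoters. MyoD and Myf5 mark committed myoblasts, myogenin comes with the start of differentiation, and the genes of the contractile apparatus follow later. Adult sarcomeres use isoforms of actin, myosin, troponin and metabolic enzymes that differ from those of dividing cells.

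The file listed 22068 genes as RPKM, the reads of a gene scaled to the length of its transcript and to the mapped reads of the library. Of these, 12986 were above 0 and 9082 were listed at 0. A level of 1 RPKM or more was found for 10101 genes, 45.8% of all rows, and 41.2% of rows were listed at 0. The median of the genes above 0 was 4.15 RPKM. The read total behind the values came out at 5130481, so that 1 read on a transcript of 2 kb was worth 0.0975 RPKM. Reads estimated for genes made 43.6% of that total, and the reason was not tested. An exact 0 in this file is not evidence of silence, because ribosomal protein genes that every cell uses, Rpl21, Rpl26, Rpl9, Rps21, Rps23 and Rps29, were also listed at 0. Such genes are therefore called listed at 0 throughout.

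**Figure D1:**
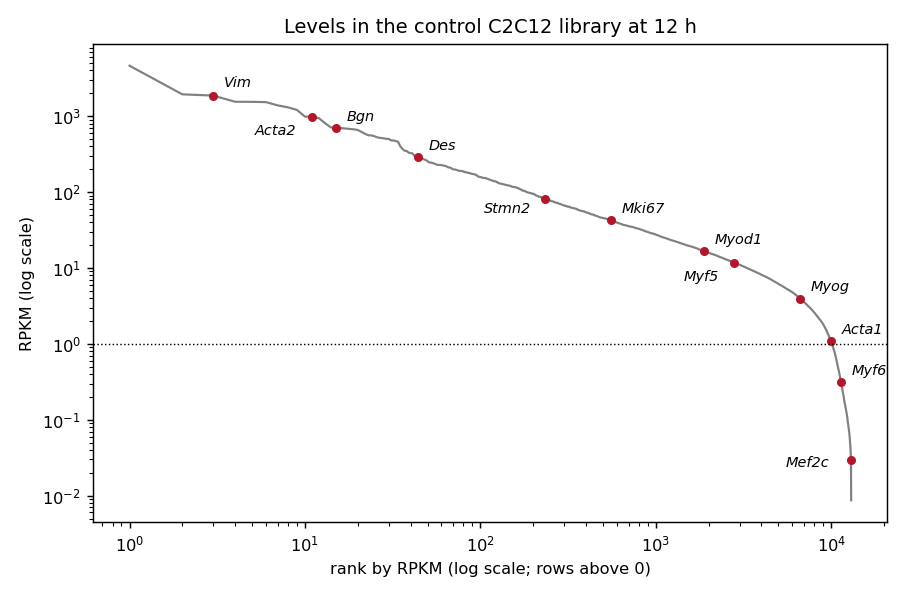
RPKM of the 12986 genes above 0 against their rank, both axes on a log scale, with named genes as red points and a dotted line at 1 RPKM. Vim stood at 1867 RPKM, Myod1 and Myf5 lay above 10 RPKM, and Acta1 lay at 1.09 RPKM.

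Markers of the labelled cell type were present. Bgn, the small proteoglycan biglycan, stood at 698 RPKM (95% interval 683 to 713) and Des, the muscle intermediate filament desmin, at 291 RPKM (283 to 300). Myod1 stood at 16.7 RPKM (14.2 to 19.5) and Myog at 3.95 RPKM (2.67 to 5.64), from an estimated 159 and 30 reads. In mm9, Myod1 lies on chromosome 7 from 53631844 to 53634462 and Myog on chromosome 1 from 136186581 to 136189124, both on the forward strand. All 12 skeletal myoblast markers were at 1 RPKM or more, beside 45.8% of all rows, with a median of 19.7 RPKM. These included the cadherin Cdh15 at 22.6 RPKM, the laminin receptor subunit Itga7 at 16.8 RPKM and the acetylcholine receptor subunit Chrna1 at 28.7 RPKM. The marker list was chosen with earlier results of these data known. Reaching 1 RPKM does not set the cell type by itself, since 8 of 10 smooth muscle markers also did, with a median of 79.3 RPKM.

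Among markers of other cell types, 23 of 115 were at 1 RPKM or more, 20% against 45.8% of all rows, and 70 were listed at 0. The 8 endothelial markers, Pecam1 and Cdh5 among them, were all listed at 0, as were 8 of 10 blood and macrophage markers, where Cd68 was highest at 0.967 RPKM. Liver, glial and pluripotency markers had no member at 1 RPKM. The markers above that level came from several lineages. Stmn2, a microtubule regulator best known from neurons, stood at 81.9 RPKM (75.2 to 89.1) and Tubb3 at 26.2 RPKM, with Gap43 at 5.99, Nefl at 3.41 and Nefm at 1.15 RPKM. In all, 5 of 9 neuronal markers were at 1 RPKM or more, Syt1 stood at 0.258 RPKM, and Rbfox3, Snap25 and Elavl3 were listed at 0. Scx, a tendon transcription factor, stood at 29.3 RPKM and Ly6a, the cell surface antigen Sca-1, at 78.9 RPKM, while Tnmd and Thy1 were listed at 0. Runx2, Sox9 and Cebpa, regulators of bone, cartilage and fat cells, stood at 6.41, 7.10 and 6.57 RPKM, while Sp7, Acan and Adipoq were listed at 0. Of the smooth muscle markers, 8 of 10 were at 1 RPKM or more. Acta2 stood at 985 RPKM and Tagln at 182 RPKM, while the smooth muscle myosin heavy chain Myh11 and the coactivator Myocd were listed at 0.

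**Figure D2:**
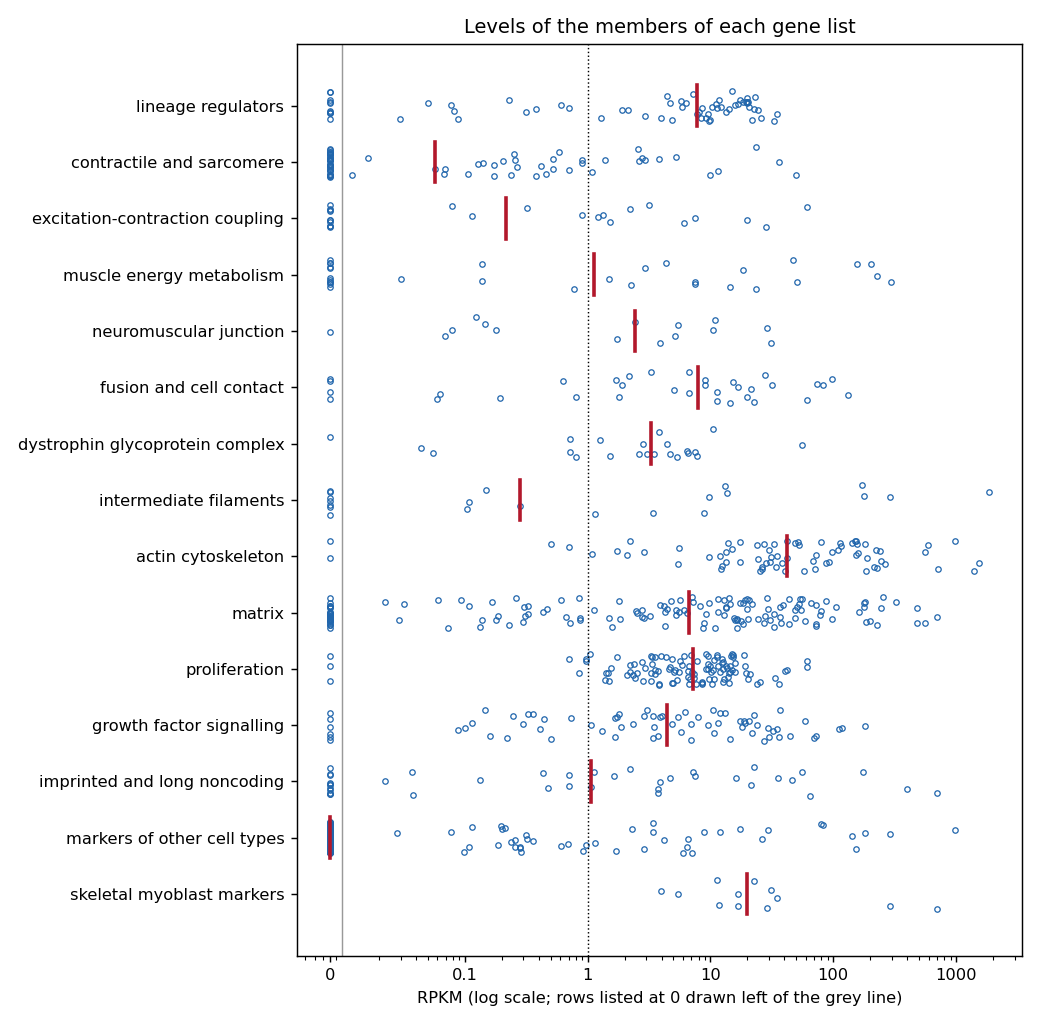
RPKM of every member of the 15 gene lists on a log scale, with members listed at 0 drawn left of the grey line, the median of each list in red and a dotted line at 1 RPKM. The contractile list had a median of 0.0574 RPKM, the proliferation list 7.18 RPKM and the actin cytoskeleton list 41.6 RPKM.

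Cytoskeletal transcripts were among the most abundant. The intermediate filament gene Vim stood at 1867 RPKM (1842 to 1893) and made 1.14% of the RPKM total. It was joined by the ubiquitin gene Ubb at 1545 RPKM, the cytoplasmic actins Actg1 and Actb at 1549 and 1387 RPKM, the elongation factor Eef1a1 at 1531 RPKM, the tubulins Tuba1a and Tuba1b at 1307 and 811 RPKM, and the calcium binding protein gene S100a4 at 1209 RPKM. The ribosomal protein gene Rpl41 stood at 1940 RPKM and had no annotated length from which to estimate its reads. Cofilin (Cfl1) at 714 RPKM, galectin-1 (Lgals1) at 688 RPKM, Ifitm3 at 679 RPKM and the ferritin light chain Ftl1 at 671 RPKM followed. The 10 highest genes held 11% of the RPKM total, the 100 highest 29.1%, and 576 genes held 50%.

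Several of the highest rows share sequence with other loci. Of the 26 genes among the 30 highest with a scanned transcript, 10 had more than 50% of their 31-base words elsewhere in mm9, and 7 had less than 5%. For Actg1 the share was 96.5% and for Vim 0.416%. Gm5506 at 987 RPKM had 91.7% of its words elsewhere, while Eno1, the enolase gene it resembles, stood at 0.768 RPKM with 77.2%. Gm1821 at 942 RPKM and Ftl2 at 511 RPKM are pseudogenes in RefSeq. Rows that RefSeq calls pseudogenes held 1.74% of the RPKM total. How reads that fit several places were assigned is not given in the sources used here, so the split between such copies is uncertain and its part in these levels was not tested.

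By function, 25 classes covered 44.6% of the RPKM total. The actin cytoskeleton was the highest class, with 91 genes holding 6.60%, followed by the proteasome and ubiquitin class at 4.84%. Extracellular matrix held 4.19%, cytosolic ribosomal proteins 3.75% and tubulins 2.78%. The highest members of the proteasome and ubiquitin class were ubiquitin genes, with Ubb at 0.945%, while 39 proteasome subunits together held 0.375%. Translation factors held 2.21%, chaperones 2.17%, oxidative phosphorylation 1.59% and glycolysis 1.14%. Replication and mitosis held 0.710% over 125 genes and sarcomere and muscle contraction 0.133% over 82 genes. The 1474 olfactory and vomeronasal receptor rows held 0.00217%, with a highest level of 0.609 RPKM. RPKM weighs each transcript equally per length, so the order changed when estimated reads were counted. Matrix, with its long transcripts, then held 5.89% (exact binomial interval 5.86 to 5.92) and actin cytoskeleton 5.31% (5.28 to 5.34).

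**Figure D3:**
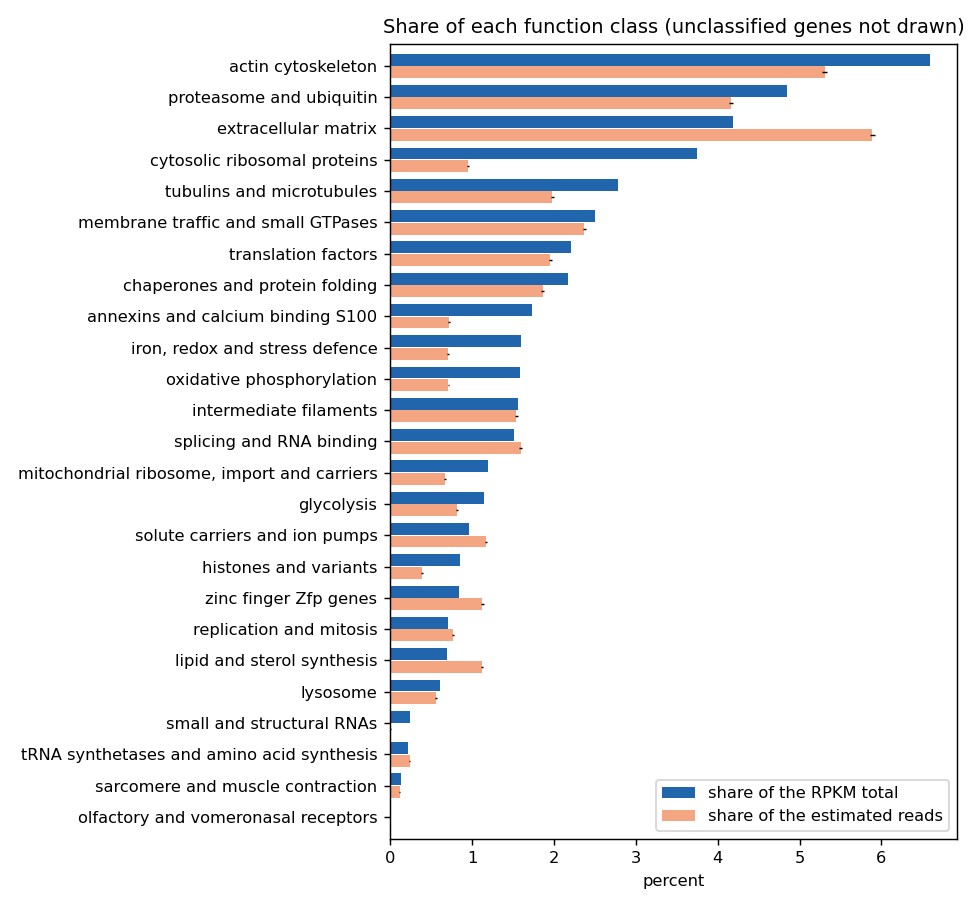
Share of the RPKM total (blue) and of the estimated reads (orange, with exact binomial intervals) for each function class, in percent. Actin cytoskeleton led by RPKM at 6.60% and extracellular matrix by reads at 5.89%.

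The 87 cytosolic ribosomal protein genes, which include paralogs, were listed over the whole range of the library. Their median was 20.01 RPKM, with Rplp1 at 542 RPKM below Rpl41, and with Rps18 at 0.372 RPKM near the bottom. 10 of them were listed at 0, among them the tissue-restricted paralogs Rpl3l and Rpl10l. By comparison, the 8 chaperonin subunits lay between 11.1 and 67.0 RPKM and the 6 subunits of the MCM helicase between 7.29 and 15.9 RPKM. Over the 86 ribosomal genes with a scanned transcript, Spearman's rho between the share of words found elsewhere and RPKM was 0.0665, given as a description of 1 library.

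**Figure D4:**
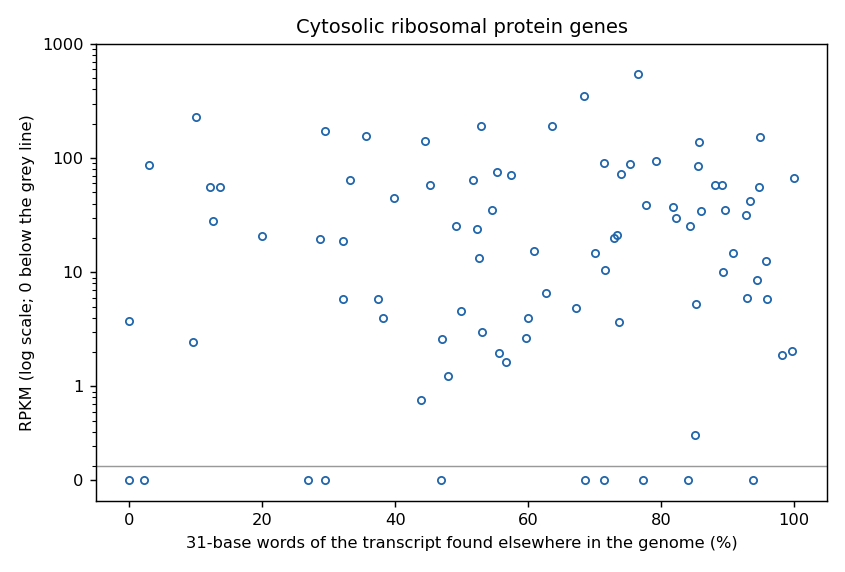
RPKM (log scale, genes listed at 0 below the grey line) of 86 cytosolic ribosomal protein genes against the percentage of their 31-base words found elsewhere in mm9. Genes at every share of repeated words lay at high and at low RPKM, and rho was 0.0665.

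Of the lineage regulators, 45 of 65 were at 1 RPKM or more, 69.2% against 45.8% of all rows. Myod1 was the highest of the 4 myogenic factors, Myf5 stood at 11.7 RPKM (9.74 to 13.9), and Myf6 at 0.312 RPKM (0.0378 to 1.13). The intervals of Myod1 and Myf5 did not overlap, nor did those of Myf5 and Myog, and that of Myf6 lay below all others. Their E protein partners Tcf12, Tcf4 and Tcf3 stood at 17.3, 16 and 9.23 RPKM. The homeobox genes Six4 and Six5 stood at 7.73 and 4.71 RPKM. Of the EYA genes, whose products are their coactivators, Eya4 stood at 6.32, Eya3 at 5.89 and Eya1 at 1.89 RPKM, with Eya2 at 0.0825 RPKM and Six2 listed at 0.

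The MEF2 family was uneven. Mef2a and Mef2d stood at 9.85 and 9.59 RPKM, Mef2c at 0.0297 RPKM from an estimated 1 read, and Mef2b was listed at 0. Srf, the serum response factor, stood at 12.2 RPKM, with its coactivators Mkl1 at 20.5 and Mkl2 at 4.84 RPKM. The satellite cell factor Pax7 stood at 0.228 RPKM (0.0276 to 0.824), Pax3 at 0.0504 RPKM and Meox1 at 0.0883 RPKM, and Lbx1, Meox2, Pitx1 and Barx2 were listed at 0. Pitx3 stood at 0.707 RPKM, and the forkhead factors Foxk2 and Foxk1 stood at 19.7 and 8.38 RPKM. Inhibitors of the myogenic factors were also present, with Id3 at 24.5 RPKM, Id1 at 18.4 RPKM, Bhlhe40 at 33.0 RPKM and Snai2 at 22.8 RPKM, while Twist1, Id4 and Msc were listed at 0. The 8 listed subunits of the BAF chromatin remodelling complex, which has others, were all at 1 RPKM or more, beside 45.8% of all rows. Smarcb1 stood at 19.9, Smarca4 (Brg1) at 14.1, Smarce1 at 13.3, Smarcc1 at 10.2, Smarcd2 at 9.65, Smarcd1 at 8.47, Smarcd3 (Baf60c) at 5.76 and Smarca2 at 1.28 RPKM. Linc-RAM, listed as 2310015B20Rik, was listed at 0.

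Contractile genes were mostly near or at 0, with 13 of 69 at 1 RPKM or more, 18.8% against 45.8% of all rows. None of the 21 thick filament genes reached 1 RPKM and 17 were listed at 0, including the sarcomeric myosin heavy chains Myh1, Myh2, Myh3, Myh4, Myh7 and Myh8 and the light chain Myl1. Mylpf, the fast light chain, stood at 0.258 RPKM from an estimated 1 read. Of the thin filament genes, the troponin T gene Tnnt2 was highest at 9.97 RPKM (7.62 to 12.8), followed by Tnnc1 at 2.77 RPKM, while Tnni1 and Tnnt3 stood at 0.525 and 0.174 RPKM. Ttn, which encodes titin, stood at 0.252 RPKM and Neb, nebulin, at 0.00867 RPKM. The Z-disc role held the highest values of the list, from genes also used outside the sarcomere. The small heat shock protein gene Cryab stood at 49.5 RPKM, Ankrd1 at 36.4 RPKM and the filamin Flnc at 23.4 RPKM, while Actn2, Myot, Myoz1 and Csrp3 were listed at 0.

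The actin genes showed the same division. Actg1 and Actb together made 72.2% of actin RPKM, the smooth muscle genes Acta2 and Actg2 27.7%, and the striated muscle genes Acta1 and Actc1 0.0440%. Acta2 stood at 985 RPKM (965 to 1006), Actg2 at 141 RPKM (132 to 150), Acta1 at 1.09 RPKM (0.470 to 2.14) and Actc1 at 0.701 RPKM (0.228 to 1.64). Acta2, Actg2, Acta1 and Actc1 shared few 31-base words with other loci, between 0.693% and 4.45%. The promoters of Acta2 and Acta1 are shown as members of 1 family far apart in level, and those of Myog and Des as muscle regulator and filament genes present in the library. Each covers 250 bases before and 50 after the annotated start, from RefSeq on GRCm38.p6, and is not to be read with the mm9 positions above. Capitals mark TATAA on either strand and a CArG box, the binding site of SRF, in the actin genes, and TATAA and CANNTG, the E-box, in Myog and Des.
Acta2: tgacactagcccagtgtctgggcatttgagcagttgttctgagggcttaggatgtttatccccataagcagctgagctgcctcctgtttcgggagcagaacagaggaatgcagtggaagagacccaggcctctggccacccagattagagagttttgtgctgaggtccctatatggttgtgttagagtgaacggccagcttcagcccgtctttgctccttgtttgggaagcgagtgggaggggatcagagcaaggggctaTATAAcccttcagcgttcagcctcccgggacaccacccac
Acta1: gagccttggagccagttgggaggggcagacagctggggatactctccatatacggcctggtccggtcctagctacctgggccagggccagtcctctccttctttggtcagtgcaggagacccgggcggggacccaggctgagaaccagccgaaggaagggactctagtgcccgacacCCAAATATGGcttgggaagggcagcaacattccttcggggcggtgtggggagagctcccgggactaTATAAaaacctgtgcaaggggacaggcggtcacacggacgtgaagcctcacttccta
Myog: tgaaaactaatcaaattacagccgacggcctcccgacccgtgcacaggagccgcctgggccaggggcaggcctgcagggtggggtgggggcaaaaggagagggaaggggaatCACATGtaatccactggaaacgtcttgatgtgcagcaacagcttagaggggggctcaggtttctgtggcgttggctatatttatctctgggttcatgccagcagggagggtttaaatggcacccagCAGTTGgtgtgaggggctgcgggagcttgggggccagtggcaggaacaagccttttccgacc
Des: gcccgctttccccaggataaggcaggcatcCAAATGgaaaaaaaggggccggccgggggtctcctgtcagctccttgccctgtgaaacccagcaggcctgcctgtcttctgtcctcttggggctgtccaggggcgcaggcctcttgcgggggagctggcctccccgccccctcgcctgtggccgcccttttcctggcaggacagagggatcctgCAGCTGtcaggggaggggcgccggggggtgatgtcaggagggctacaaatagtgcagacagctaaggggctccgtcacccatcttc

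Counted from 0 at the annotated start, TATAA began at 10 in Acta2 and at -7 in Acta1. A CArG box began at -73 in Acta1, and Acta2 held none without a mismatch. Acta1 and Acta2 each held 2 with 1 mismatch, and the share of all promoters with such boxes was not counted. E-boxes began at -138 and -12 in Myog and at -220 and -36 in Des. Of the 27025 promoters of the table, 25.5% held TATAA on either strand, 1.57% a CArG box and 72.1% an E-box. These matches are a description of the sequence, and no factor binding was measured here.

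Genes with a muscle or adult form and another form, in most pairs one used more widely, were set side by side. The 20 pairs were chosen after the values were seen, with Acta1 in 2 of them. The muscle or adult form was the lower in 19 pairs. It was listed at 0 in 8 of the 20, near the 41.2% of all rows listed at 0. Phosphoglycerate mutase Pgam2 stood at 1.51 RPKM against Pgam1 at 228 RPKM, a ratio of 151 (73.4 to 377). Pgam1 had 94.1% of its words elsewhere in mm9 and the creatine kinase gene Ckb 55.1%. The levels of both are therefore uncertain in a way that the counting interval does not cover. Slc2a4, the insulin-responsive glucose transporter, stood at 0.138 RPKM against Slc2a1 at 23.5 RPKM. Ckm, Cox6a2, Cox7a1 and Cox8b were listed at 0, against Ckb at 7.52, Cox6a1 at 157, Cox7a2 at 50.9 and Cox8a at 202 RPKM. Dmd, dystrophin, was listed at 0 and its paralog Utrn, utrophin, stood at 4.64 RPKM. In the remaining pair, enolase, the muscle form Eno3 stood at 46.6 RPKM (42 to 51.5), with 0% of its words at other loci, and Eno1 at 0.768 RPKM. The direction of this pair is uncertain, since it turns if the 987 RPKM of Gm5506 is counted with Eno1.

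**Figure D5:**
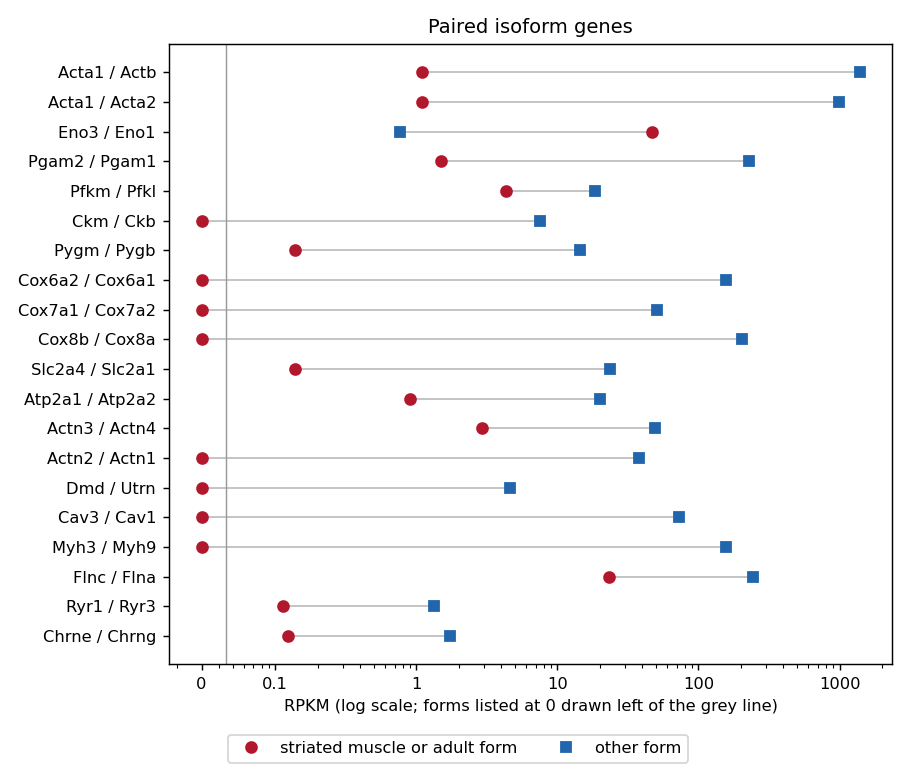
RPKM (log scale, forms listed at 0 left of the grey line) of the muscle or adult form (red) and the other form (blue) in 20 pairs of genes. The muscle or adult form was the lower in 19 pairs. The enolase pair turns if Gm5506 at 987 RPKM is counted with Eno1.

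Of the genes of excitation-contraction coupling, 10 of 24 were at 1 RPKM or more, 41.7% and close to the 45.8% of all rows. Cacng1, a calcium channel subunit, was highest at 61.2 RPKM (55.3 to 67.6), and Jph2, which ties the surface membrane to the calcium store, stood at 28.3 RPKM. The channel itself, Cacna1s, and the store proteins Casq1, Casq2 and Trdn were listed at 0, and the release channel Ryr1 stood at 0.114 RPKM. At the neuromuscular junction 9 of 15 genes were at 1 RPKM or more, beside 45.8% of all rows, and the list is too short to read a departure from that share. The receptor subunits Chrna1, Chrnb1, Chrnd and Chrng stood at 28.7, 10.8, 2.41 and 1.72 RPKM and the adult subunit Chrne at 0.123 RPKM, with Rapsn, which clusters the receptor, at 31 RPKM and the kinase Musk at 5.48 RPKM. Of 34 fusion and cell contact genes, 25 reached 1 RPKM, 73.5% against 45.8% of all rows, led by Cd81 at 131 RPKM. The fusion proteins Tmem8c (myomaker) and Gm7325 (myomixer) stood at 1.70 and 1.80 RPKM.

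Cell cycle genes were nearly all present. The proliferation list held 112 genes, among them 7 inhibitors of cyclin kinases and 13 genes of the E2F and RB families. Of these 112 genes, 105 were at 1 RPKM or more, 93.8% against 45.8% of all rows. All 42 mitosis genes reached this level, led by Mki67 at 42.2 RPKM, the ubiquitin-conjugating enzyme Ube2c at 40.4 RPKM and Racgap1 at 23.8 RPKM, and down to Ttk at 1.56 RPKM. Of 38 replication genes 36 did, led by the sliding clamp Pcna at 35.9 RPKM and Top2a at 21 RPKM, with Pold1 and Rfc4 just under at 0.968 and 0.962 RPKM. Cdk4 stood at 60.8 RPKM, Ccnd3 at 25.1 RPKM and Ccnd1 at 19 RPKM. Inhibitors of cyclin kinases, also part of the list, included Cdkn1a (p21) at 61.3 RPKM, Cdkn2d at 33.3 RPKM and Cdkn1b at 15.2 RPKM. Cdkn2a and Cdkn2b were listed at 0. Whether the same cells held these inhibitors and the other cell cycle genes cannot be told in bulk RNA. Nor can fewer cells with a transcript be told apart from less of it per cell.

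Of 152 matrix genes, 99 were at 1 RPKM or more, 65.1% against 45.8% of all rows. Below Bgn stood the collagen chaperone Serpinh1 at 558 RPKM, the glycoproteins Sparc and Fn1 at 480 and 478 RPKM and osteopontin, Spp1, at 326 RPKM. Collagens I, III and V were the main fibrillar collagens, with Col1a2 at 178, Col3a1 at 163, Col1a1 at 78.2 and Col5a2 at 72.2 RPKM, while Col2a1 was listed at 0. Of the basement membrane genes, the nidogens Nid1 and Nid2 stood at 54.9 and 36.6 RPKM, the proteoglycan Hspg2 at 27.6 RPKM, and the collagens Col18a1, Col4a2 and Col4a1 at 17.5, 16.4 and 12.9 RPKM. Of the laminin chains Lamb1 and Lamc1 stood at 19.2 and 18.4 RPKM, while the muscle chain Lama2 stood at 0.722 RPKM. All 18 genes of collagen synthesis and crosslinking were at 1 RPKM or more, from Loxl4 at 2.76 RPKM to Serpinh1. The proteoglycan Dcn stood at 1.12 RPKM and Lum was listed at 0, against Bgn at 698 RPKM. Of proteinases and inhibitors, Timp2 was highest at 182 RPKM and the membrane proteinase Mmp14 stood at 97 RPKM.

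Among growth factor genes, 52 of 72 were at 1 RPKM or more, 72.2% against 45.8% of all rows. Follistatin-like Fstl1 was the highest ligand or antagonist at 182 RPKM, with the activin subunit Inhba at 44.7 RPKM, and Pdgfrb was the highest receptor at 58.9 RPKM. Igf2 stood at 1.06 RPKM (0.671 to 1.59), Igf1 at 0.249 RPKM and the myostatin gene Mstn was listed at 0. The IGF binding protein genes Igfbp2, Igfbp7, Igfbp6 and Igfbp5 stood at 117, 111, 72.9 and 70.3 RPKM.

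Igf2 and the neighbouring imprinted noncoding gene H19 were far apart, since H19 stood at 697 RPKM (682 to 712), rank 16. H19 lies on chromosome 7 of mm9 from 149761434 to 149764048 on the reverse strand and is the precursor of miR-675. The row for Mir675 was listed at 0, as was that for Mir206, and small RNAs are not what a polyadenylated library measures. The mature forms are shown because H19 is their source, from RefSeq, with the seed, bases 2 to 8, in capitals.
miR-675-5p: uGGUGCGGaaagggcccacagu
miR-675-3p: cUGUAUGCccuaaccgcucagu

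Of the nuclear noncoding RNAs, Malat1 stood at 398 RPKM, Neat1 at 174 RPKM and Xist, which coats the inactive X chromosome, at 56.0 RPKM (54.5 to 57.6), while all 13 rows on the Y chromosome were listed at 0. Of the other imprinted genes, Gnas stood at 64 RPKM, Peg3 at 46.4 RPKM and Peg10 at 22.5 RPKM, while Meg3, Rian, Mirg and Dlk1 were listed at 0.

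The Hox genes, which carry positional identity, differed between their 4 clusters. Of all 39 Hox genes 15 were at 1 RPKM or more, 38.5% and near the 45.8% of all rows. In the A cluster 7 of 11 genes and in the C cluster 8 of 9 genes were at that level. The clusters are short, and no difference between them was tested. In the B cluster none of 10 was, with Hoxb6 highest at 0.295 RPKM, and all 9 genes of the D cluster were listed at 0. Hoxc10 was highest at 25.6 RPKM (22.5 to 28.9), followed by Hoxc9 at 12, Hoxc6 at 11.6 and Hoxc11 at 8.95 RPKM, then Hoxa10 at 7.13 RPKM (5.77 to 8.73), Hoxa11 at 4.86, Hoxc5 at 4.21, Hoxa9 at 3.86 and Hoxc4 at 3.83 RPKM. Hoxa7, Hoxa5, Hoxa3, Hoxc13, Hoxc8 and Hoxa6 lay between 1.39 and 2.30 RPKM. The intervals of Hoxc9 and Hoxc6 overlapped, and that of Hoxc10 lay above all others.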

How the data were processed

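Polyadenylated RNA of 1 control line was sequenced by the authors, who aligned it to mm9 by TopHat, release 1.4.1 by the submitters' processing notes, and obtained gene coverage from DEGSeq. The deposited values are RPKM per gene, made by the authors from reads scaled to transcript length and mapped reads. The annotation, the rule for reads with several matches and the total are not given in the sources used. The other 2 libraries were not used here.

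RPKM values were used as deposited, with no pseudocount or scaling. The read total was the best supported one, by the number of genes under 1 RPKM with whole reads at a GENCODE transcript length. It had 844 gene and length combinations, against 350 at 1 in 2 of it, and 2885 genes lay above 0 and under 1 RPKM. Whole multiples of a total fit the same genes, and a first form of this search returned a multiple of a simulated total. A rule was therefore added after that failure, by which a whole divisor that keeps at least 70% of the support is preferred. With the rule, 6 of 6 simulated totals were found, on simulated data of 12017 to 12698 genes, and the total of the control library was the same with and without it. Reads per gene followed from RPKM, total and length, and were estimates, since the lengths the authors used are not known. Of 6271 genes with at most 60 estimated reads, 28.1% had whole reads at an annotated length. For 66.2% another length that gave whole reads was used, so read numbers and intervals of low genes are less certain. For 183 genes above 0, Rpl41 among them, no length was found and no reads were estimated. Intervals are exact Poisson for levels and exact binomial (Clopper-Pearson) for shares and ratios, at 95%, and cover counting error only.

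Words of 31 bases from the transcripts of 1141 genes were searched in mm9. Classes were set by gene symbol, the first match counting. Named genes were the 30 highest outside small RNAs, all members of the main regulator roles, up to 6 highest and 6 lowest members of each other role, the Hox genes at 1 RPKM or more and the actins. The ribosomal, paired and further examples were chosen after their values were seen. Members and lists were chosen with earlier results of these data known. Gene types of 21821 rows and promoters of 14809 rows were matched to RefSeq by symbol. Myl12a, Col6a3, Snhg5, Hotair and Map2 were not analysed here. The motif search first looked for TATAA near the start only and was widened to all 300 bases and both strands after it had missed copies just outside that window. Alternatives were other thresholds, shares of reads, and leaving out small RNAs or the 10 highest genes. Calculations ran in Python 3.11.15 with scipy 1.17.1, pandas 2.3.3 and numpy 2.4.6, and plots in matplotlib 3.10.9. The results for some genes are not reported here.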

Additional observations from a re-analysis of the deposited data

How the results depend on the processing

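Leaving out small and structural RNAs changed the 5 class shares of the RPKM total little. Cytosolic ribosomal proteins went from 3.746% to 3.755%, actin cytoskeleton from 6.60% to 6.61% and extracellular matrix from 4.19% to 4.20%. Sarcomere and muscle contraction went from 0.1328% to 0.1331% and replication and mitosis from 0.710% to 0.712%. As a share of estimated reads, cytosolic ribosomal proteins held 0.952% (Rpl41 has no read estimate), actin cytoskeleton 5.31%, extracellular matrix 5.89%, sarcomere and muscle contraction 0.115% and replication and mitosis 0.773%. Without the 10 highest genes, which removes Rpl41, Actg1 and Actb from their classes and makes the total smaller, these shares were 2.87%, 5.39%, 4.71%, 0.149% and 0.798%. At a threshold of 5 RPKM, 5821 genes and 6 contractile genes remained above it, and 37 contractile genes were above 0. The other threshold settings kept the counts of all genes, contractile, proliferation, lineage regulator and matrix genes within 1.5 times. The number of genes that make 50% of the total was 578 without small RNAs and 775 by estimated reads. No paired analysis was possible because there was 1 library and no test. With a median of 93 estimated reads among genes at 1 RPKM or more, levels of a few reads, such as those of Mef2c, Mylpf and Myf6, have wide intervals and are not ordered among themselves.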

Other observations

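Coding length and promoter composition differed along the range of levels, given here as values across genes of 1 library. The median coding length was 954 nt among the 100 highest genes, 948 nt among the next 900 and 1443 nt among the other genes at 1 RPKM or more. Genes listed at 0 had a median of 969 nt. They include 1456 of the 1474 olfactory and vomeronasal receptor rows, whose part in these values was not tested. Promoters were matched for 70 of the 100 highest genes and for 5686 of the 9082 genes listed at 0. The median GC content of the promoters was 60.7% for the 100 highest genes and 48.7% for genes listed at 0. TATAA on either strand was found in 28.6% of promoters of the 100 highest genes, 11.3% of those of the other genes at 1 RPKM or more beyond rank 1000, and 36.5% of those of genes listed at 0.

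Of 42 collagen genes 16 were at 1 RPKM or more, of 26 integrin subunits 9, of 47 keratins 2, and of 68 canonical histone genes 36, beside 45.8% of all rows. The shares of collagens (38.1%) and histones (52.9%) lay near that of all rows. Lipid and sterol synthesis genes held 0.699% of the RPKM total over 33 genes, led by the desaturase Scd2 at 369 RPKM.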
